A study of Homo sapiens with 6 samples.

Results

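SESN1, SESN2, SESN3 and DDIT4 encode 4 stress-responsive inhibitors of the growth kinase complex mTORC1, and their RNA was compared between HCT116 cells labelled MLL4WT and MLL4KO. The genes were picked by name from the 59715 Ensembl gene IDs of the count table, and all 4 were among the 14543 genes with enough counts to be tested. They had been proposed with their MLL4KO against MLL4WT values known. Those values are therefore given as a description, with no test. HCT116 is an established human colorectal carcinoma line. The MLL4WT group holds 3 libraries of cells with the histone H3 lysine methyltransferase MLL4 intact, and the MLL4KO group holds 3 libraries of the same line in which MLL4 was knocked out. Both were grown in the same serum-supplemented medium, and the labels name no treatment. The labels leave unsaid if the knockout line is 1 clone and if replicates are separate cultures, so p-values measure only the spread between these samples, which may be technical.

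Sestrins and DDIT4 slow growth when nutrients, oxygen or genome integrity are threatened. The sestrin proteins bind the GATOR2 complex, which frees GATOR1 to switch off the RAG GTPases that bring mTORC1 to the lysosome, and SESN2 loses its grip on GATOR2 when it binds leucine. DDIT4, also called REDD1, acts on the other arm, through the TSC complex that inactivates the GTPase RHEB. Their genes are known for different inducers. SESN1 responds to DNA damage, SESN2 to ATF4 and NRF2, SESN3 to FOXO factors, and DDIT4 to hypoxia-inducible factor, ATF4 and glucocorticoids.

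The promoter windows of the members differed from each other in sequence, and 1 window of each gene is shown because the genes differed in direction. All 4 genes were matched by symbol in a RefSeq promoter table on GRCh38.p14, whose windows run from 250 bases before to 50 bases after a transcript start. Capitals mark every match, on either strand, to the FOXO site GTAAACA, the C/EBP-ATF response element TGATGNAA, the hypoxia response element ACGTG, the GC box GGGCGG or the TATA box TATAAA. The first of the 3 SESN1 windows is shown because it lies at the start of the annotated gene.
SESN3, chr11:95232426-95232725, minus strand: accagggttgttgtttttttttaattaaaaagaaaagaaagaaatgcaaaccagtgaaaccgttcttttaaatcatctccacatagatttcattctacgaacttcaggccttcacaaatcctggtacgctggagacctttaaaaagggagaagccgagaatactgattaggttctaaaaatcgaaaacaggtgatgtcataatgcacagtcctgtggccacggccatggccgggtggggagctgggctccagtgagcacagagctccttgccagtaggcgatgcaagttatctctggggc
SESN1 window 1, chr6:109094797-109095096, minus strand: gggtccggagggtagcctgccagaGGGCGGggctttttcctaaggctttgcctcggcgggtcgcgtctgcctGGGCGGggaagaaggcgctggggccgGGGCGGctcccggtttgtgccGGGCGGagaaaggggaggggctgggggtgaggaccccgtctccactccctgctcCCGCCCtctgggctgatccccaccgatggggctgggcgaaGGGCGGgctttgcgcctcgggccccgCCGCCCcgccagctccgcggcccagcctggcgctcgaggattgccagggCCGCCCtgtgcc
SESN2, chr1:28259268-28259567, plus strand: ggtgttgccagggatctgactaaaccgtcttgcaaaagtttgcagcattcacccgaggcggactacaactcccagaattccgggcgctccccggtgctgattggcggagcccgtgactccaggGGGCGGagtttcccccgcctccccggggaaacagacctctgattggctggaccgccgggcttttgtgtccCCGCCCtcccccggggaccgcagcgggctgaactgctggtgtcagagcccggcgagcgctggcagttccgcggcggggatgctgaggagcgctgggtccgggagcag
DDIT4, chr10:72273674-72273973, plus strand: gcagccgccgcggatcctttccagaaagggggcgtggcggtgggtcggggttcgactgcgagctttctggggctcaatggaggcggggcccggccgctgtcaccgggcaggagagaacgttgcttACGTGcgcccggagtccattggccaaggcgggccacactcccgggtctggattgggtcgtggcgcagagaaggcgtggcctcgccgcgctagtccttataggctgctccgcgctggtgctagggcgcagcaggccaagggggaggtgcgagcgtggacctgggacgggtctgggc

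The SESN3 window held none of these motifs and was the poorest of the 4 shown in CpG, with 8 CpG dinucleotides and 45.0% GC. The median of all 35116 windows in the table was 14.0 CpG and 58.7% GC. DDIT4 had 30 CpG at 69.7% GC, SESN2 25 at 67.0%, and SESN1 window 1 had 28 at 75.0%. The DDIT4 window held 1 hypoxia response element 125 bases before the start, a motif found in 21.4% of all windows. SESN2 held 2 GC boxes and SESN1 window 1 held 8, a motif found in 45.0% of windows. The FOXO site (3.42% of windows), the C/EBP-ATF response element (3.62%) and the TATA box (11.5%) were in none of the members' windows. The other 2 SESN1 windows had 72.3% and 58.0% GC, with 5 GC boxes, of which a pair share bases, and 1 GC box. None of the matches in the sequences shown overlapped. A match describes these letters only, and the labels name no measurement of binding.

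Library totals ranged from 6829400 to 19736751 counts. MLL4WT replicate 1 was the shallowest, and 3 counts in it correspond to 0.446 CPM (counts per 1e6 counts of the scaled library size). Of 9 marker genes of colorectal epithelium 8 had counts, summing to between 1610 and 1670 CPM in MLL4WT and between 1080 and 1110 CPM in MLL4KO. The lower sum came from KRT8 (means of 713 and 438 CPM), KRT18, EPCAM and KRT19. CDX2 and CDH1 overlapped between the genotypes, with means of 28.7 and 30.5 CPM for CDX2 and 10.9 and 11.3 CPM for CDH1. CEACAM5 was at 0 in all libraries, and VIL1 and LGALS4 were near 0. The 10 markers of blood, endothelial and stromal cells summed to between 32.7 and 38.2 CPM in MLL4WT and between 34.7 and 37.5 CPM in MLL4KO. COL1A1 made up most of that sum, with means of 22.4 CPM in the former and 27.3 in the latter. COL3A1, of the same marker list, went the other way, from a mean of 5.22 to 0.776 CPM, with every MLL4KO library below every MLL4WT library. The part of these markers in the results was not tested. KMT2D, the gene usually meant by MLL4, overlapped between the genotypes, with MLL4WT libraries at 240, 231 and 234 CPM and MLL4KO libraries at 230, 243 and 225 CPM. KMT2B, a relative that has shared the name, had means of 90.5 and 63.2 CPM, with every MLL4KO library below every MLL4WT library. Counts over a whole gene do not show a small deletion, so they do not check the labels.

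SESN3 had the largest fold difference of the 4 genes. The gene (ENSG00000149212, chromosome 11, 95165513 to 95232541 on GRCh38, minus strand) encodes the sestrin best known as a FOXO target. SESN3 had 2.08, 0.892 and 1.32 CPM in the MLL4WT libraries, against 7.31, 5.98 and 6.25 CPM in the MLL4KO libraries (values per library are given in the order of the replicate numbers). Every MLL4KO library was above every MLL4WT library. The means were 1.43 ± 0.602 and 6.51 ± 0.705 CPM (SD, n = 3), a log2 fold change of 2.31 ± 0.24 (standard error) or 4.95-fold. Its log2 fold change was higher than that of 99.8% of tested genes. The MLL4WT values rest on 14, 13 and 23 counts, and the first of these has an exact Poisson 95% interval of 7.65 to 23.5 counts, which covers counting error only. Without MLL4WT replicate 1, the shallowest library and the highest of its group for this gene, the log2 fold change was 2.54.

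SESN1 was higher too, by a smaller factor. The gene (ENSG00000080546, chromosome 6, 108986437 to 109094819, minus strand) encodes the DNA damage-inducible sestrin, which also binds GATOR2. SESN1 had 7.88, 5.69 and 6.15 CPM in the MLL4WT libraries, against 11.4, 12.5 and 11.7 CPM in the MLL4KO libraries. The groups did not overlap, and again MLL4WT replicate 1 was the highest of its group. The means were 6.57 ± 1.15 and 11.9 ± 0.557 CPM (SD, n = 3), a log2 fold change of 0.90 ± 0.13 or 1.86-fold. That value was higher than in 96.1% of tested genes, and without MLL4WT replicate 1 it was 1.01.

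SESN2, the leucine-binding sestrin (ENSG00000130766, chromosome 1, 28259527 to 28282491, plus strand), had overlapping groups. SESN2 had 11.4, 12.6 and 11.8 CPM in the MLL4WT libraries, against 12.4, 10.3 and 11.0 CPM in the MLL4KO libraries. The means were 11.9 ± 0.570 and 11.2 ± 1.10 CPM (SD, n = 3), and the log2 fold change was -0.09 ± 0.11. It was thus smaller than its standard error. MLL4KO replicate 1 lay within the MLL4WT range, and the other two MLL4KO libraries lay below it.

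DDIT4 was the one gene of the 4 with lower RNA in MLL4KO beyond the spread between libraries. The gene (ENSG00000168209, chromosome 10, 72273920 to 72276036, plus strand) encodes the short-lived inhibitor REDD1. DDIT4 had 32.5, 27.6 and 33.3 CPM in the MLL4WT libraries, against 19.2, 21.2 and 18.1 CPM in the MLL4KO libraries. Every MLL4KO library was below every MLL4WT library. The means were 31.1 ± 3.10 and 19.5 ± 1.58 CPM (SD, n = 3), a log2 fold change of -0.67 ± 0.09, or 1.59-fold lower. Of the tested genes, 5.38% had a lower log2 fold change. After removal of GC and length trends, DDIT4 had a log2 fold change of -0.52, and without MLL4WT replicate 1 of -0.64.

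**Figure D1:**
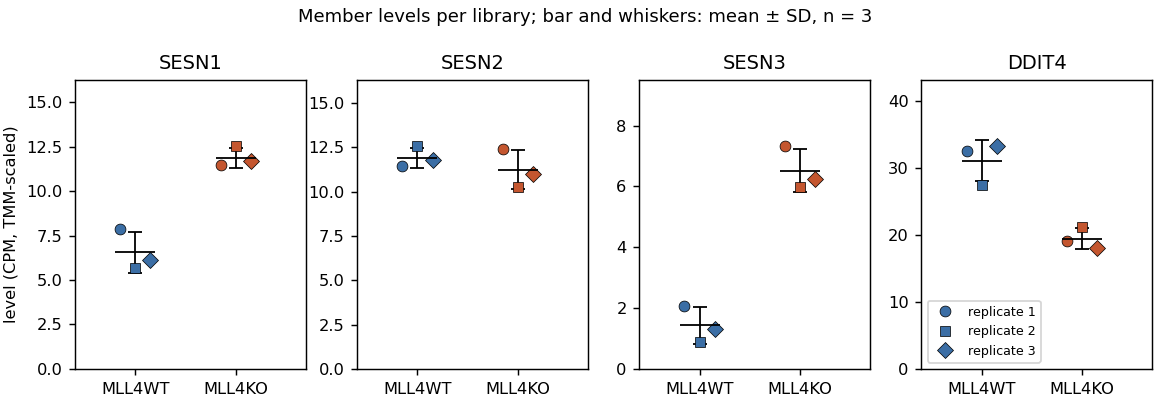
Level of each gene in CPM (vertical axis, from 0, with its own scale per panel) in the 3 MLL4WT and 3 MLL4KO libraries, with symbols for replicate numbers and bars for mean ± SD (n = 3). SESN3 and SESN1 are higher and DDIT4 is lower in all MLL4KO libraries, and the SESN2 groups overlap between 11.4 and 12.4 CPM.

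By the edgeR quasi-likelihood test 3 of the 4 genes were past an adjusted p of 0.05, as were 41.4% of all tested genes, and the groups did not overlap in the same 3 genes and in 52.5% of all tested genes. Nothing is read from these counts, because the genes were proposed with the values known. Of all tested genes 19.8% passed upward and 21.6% downward, or 2885 and 3136 genes. The split was 3706 and 2394 with total counts alone and 3561 and 2475 with upper quartile factors. In bulk RNA, fewer cells with a transcript and less of it per cell cannot be told apart.

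The direction of the 3 differences was the same across the ways of processing the counts. Their size was alike too, except that DDIT4 moved beyond its replicate spread with GC and length trends removed. Over all 16 alternatives SESN3 stayed between 2.06 and 2.59 on the log2 scale, and SESN1 between 0.81 and 1.01. DDIT4 lay between -0.75 and -0.52. SESN2 lay between -0.16 and 0.00, with the value nearest 0 after removal of GC and length trends. A code in the column names, whose meaning no label gives, was shared by MLL4WT replicate 3 and MLL4KO replicate 1, and another by MLL4WT replicate 2 and MLL4KO replicates 2 and 3. Within the first, the log2 ratio was 2.47 for SESN3, 0.90 for SESN1, 0.08 for SESN2 and -0.79 for DDIT4. Within the second, it was 2.78, 1.09, -0.24 and -0.49 for the same genes. SESN2 differed in sign between the codes and the other three genes did not. MLL4WT replicate 1 alone carried its code.

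**Figure D2:**
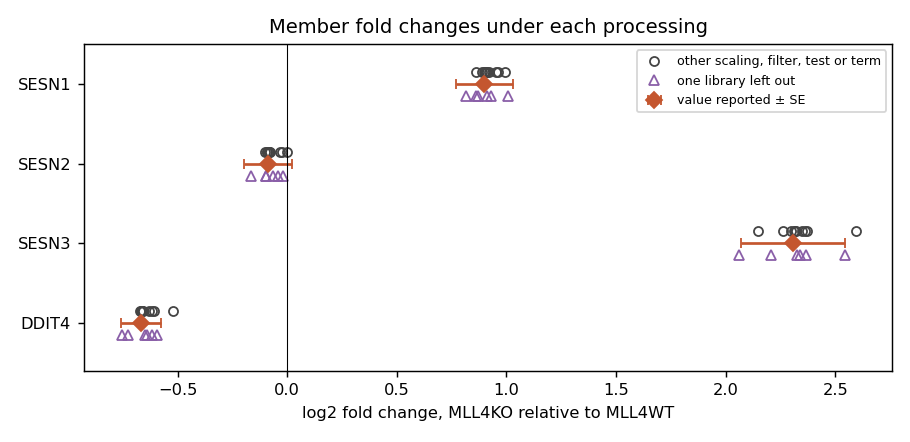
Log2 fold change of MLL4KO relative to MLL4WT (horizontal axis) for each gene, with the reported value ± standard error as a diamond, other scalings, filters, tests and model terms as circles, and fits without 1 library as triangles. SESN3 lies between 2.06 and 2.59, SESN1 between 0.81 and 1.01 and DDIT4 between -0.75 and -0.52, while SESN2 lies at or just below 0.

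Ratios of counts within a library do not depend on how libraries are scaled. Counts of SESN3 per count of SESN2 were 0.182, 0.0710 and 0.112 in the MLL4WT libraries, against 0.588, 0.581 and 0.570 in the MLL4KO libraries. The ratio was thus nearly the same in the 3 MLL4KO libraries and more variable in MLL4WT, where SESN3 counts were low. Counts of SESN1 per count of SESN2 were 0.688, 0.454 and 0.522 in MLL4WT and 0.920, 1.22 and 1.07 in MLL4KO. For DDIT4 per count of SESN2 they were 2.84, 2.20 and 2.82 in MLL4WT and 1.54, 2.06 and 1.65 in MLL4KO. In each of the 3 ratios the groups did not overlap. The ratios restate the member values given above, which were known beforehand, and add no separate evidence.

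Per length of merged exons, the order of levels in both genotypes was DDIT4, SESN2, SESN1 and SESN3. DDIT4 was at 15.1 ± 1.5 CPM per kb in MLL4WT and 9.47 ± 0.767 in MLL4KO (SD, n = 3). SESN2 was at 3.45 ± 0.165 and 3.25 ± 0.317 CPM per kb. SESN1 was at 1.28 ± 0.225 and 2.32 ± 0.109, and SESN3 at 0.135 ± 0.0569 and 0.616 ± 0.0667 CPM per kb. Neighbours in that order did not overlap in either genotype. The length matters for 1 pair, since per length of the longest transcript SESN1 was at 3.26, 3.57 and 3.33 CPM per kb in the MLL4KO libraries and SESN2 at 3.60, 2.98 and 3.18, which overlap.

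The makeup of the sestrin RNA therefore differed between the genotypes. Summed over the 3 sestrins, the level was 4.87 ± 0.160 CPM per kb in MLL4WT and 6.19 ± 0.294 in MLL4KO (SD, n = 3). SESN2 made up 71.0% ± 4.89 of that sum in MLL4WT and 52.5% ± 2.70 in MLL4KO. SESN1 made up 26.3% ± 3.81 and 37.6% ± 3.29, and SESN3 2.76% ± 1.08 and 9.93% ± 0.596. Per longest transcript, SESN2 made up 63.2% in MLL4WT and 44.4% in MLL4KO, and SESN1 34.1% and 46.3%, so which of them had the larger share in MLL4KO depends on the length used. Although SESN3 had the largest fold, SESN1 added more RNA per length, with a difference of 1.04 CPM per kb against 0.481 for SESN3. DDIT4 was lower by more than either, with a difference of -5.65 CPM per kb.

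**Figure D3:**
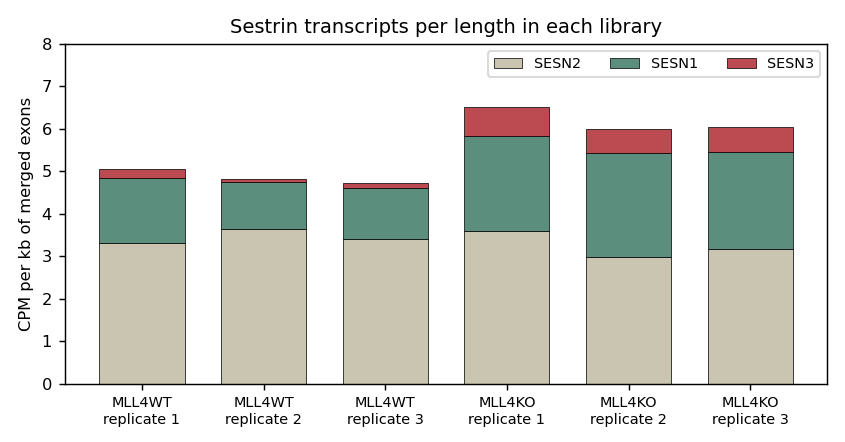
CPM per kb of merged exons (vertical axis, from 0) of SESN2, SESN1 and SESN3, stacked for each of the 6 libraries. The sums lie between 4.73 and 5.05 in the MLL4WT libraries and between 5.99 and 6.53 in the MLL4KO libraries, with SESN2 nearly level and the SESN1 and SESN3 segments taller in MLL4KO.

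Annotated antisense genes lie over 3 of the members, and the labels do not say whether the library kit kept strand. The antisense gene over SESN3, LNCRNA-IUR (chromosome 11, 95150539 to 95234104), had 13 counts in the MLL4WT libraries and 31 in the MLL4KO libraries, against 50 and 338 for SESN3. The one over SESN1 had 2 and 4 counts, against 243 and 609 for SESN1. The one over DDIT4 had 0 counts. These sums over the libraries of a group are not scaled for depth. Reads of a gene and its antisense partner cannot be told apart without strand.

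In the complex that sestrins bind, no gene passed the test, where 41.4% of all tested genes passed. Nothing is read from a count over so few genes. For the list counts here and below, 19.8% of all tested genes rose and 21.6% fell. Of the 5 GATOR2 genes none passed the edgeR test, none had an unadjusted p under 0.05, and none passed with DESeq2 or limma-voom. 1 fell without MLL4WT replicate 1. GATOR1, the RAG-inactivating complex, and its anchor KICSTOR had 2 genes that fell of 7, with 0 that rose by edgeR at either an adjusted or an unadjusted p, by DESeq2 or by limma-voom. Over all ways of processing, 0 to 1 of these 7 genes rose and 2 to 3 fell. NPRL3, a GATOR1 subunit, fell 1.36-fold (edgeR adjusted p = 0.00281). Among RAG GTPases, Ragulator and folliculin genes 3 rose, 3 fell and 7 did not pass. RRAGB, a RAG GTPase, rose 1.83-fold and FNIP2, a folliculin partner, 1.32-fold, while RRAGD fell 1.38-fold and RRAGA 1.19-fold (edgeR adjusted p between 0.000656 and 0.0112). The FNIP2 call was lost without MLL4KO replicate 2 (adjusted p = 0.0581).

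Of 4 other amino acid sensor genes of the pathway 3 rose. BMT2, which encodes the S-adenosylmethionine sensor SAMTOR, had 5.75 ± 1.14 CPM in MLL4WT and 10.6 ± 0.923 in MLL4KO (SD, n = 3), and rose 1.84-fold by edgeR (adjusted p = 0.000667). CASTOR1, the arginine sensor gene, rose 2.88-fold, from a mean of 0.401 to 1.255 CPM (edgeR adjusted p = 0.00869). These means rest on 17 and 65 counts over the group, not scaled for depth. Its log2 fold change of 1.53 was 2.13 without MLL4WT replicate 3 and 1.27 without MLL4WT replicate 2, where the call was lost (adjusted p = 0.0521). CASTOR2 rose 1.49-fold (edgeR adjusted p = 0.0249). It no longer passed with the DESeq2 test (adjusted p = 0.0657), the replicate block (0.0570) and without MLL4WT replicate 2 or MLL4KO replicate 1 or 2 (0.0788 to 0.111). SAR1B, a leucine sensor gene, was at a log2 fold change of -0.02 ± 0.06. With the GC and length trends removed it passed downward (adjusted p = 0.0282).

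On the arm of DDIT4, TSC1, a scaffold of the TSC complex, rose 1.22-fold (edgeR adjusted p = 0.00488), and the other three of 4 genes did not pass. TSC2 was at a log2 fold change of -0.15 ± 0.07. RHEB, the GTPase that the complex inactivates, was at -0.14 ± 0.06, which passed without MLL4WT replicate 1 (adjusted p = 0.000449) and with the column code as a term (0.000122). Of 16 tested partners and relatives of the members 7 fell and 1 rose. SFN and YWHAZ, 14-3-3 genes of the family whose proteins bind DDIT4 and release TSC2, fell 1.77-fold and 1.69-fold (edgeR adjusted p = 3.17e-07 and 7.69e-08). In the same family YWHAG and YWHAH fell 1.12-fold and 1.15-fold (edgeR adjusted p = 0.0157 and 0.00164). YWHAB, YWHAE and YWHAQ did not pass, at log2 fold changes of 0.06, 0.05 and 0.01. SQSTM1, the autophagy receptor that sestrins bind, fell 1.35-fold and SRXN1, the sulfiredoxin gene, 1.33-fold (edgeR adjusted p = 2.07e-05 and 2.66e-05). CUL3, of the KEAP1 ligase, rose 1.15-fold (edgeR adjusted p = 0.0115), which ended with GC and length trends removed (adjusted p = 0.405). DDIT4L, the paralog of DDIT4, had too few counts to be tested.

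The kinase complexes themselves were mixed. MTOR was at 177 ± 5.89 CPM in MLL4WT and 173 ± 2.15 in MLL4KO (SD, n = 3), a log2 fold change of -0.03 ± 0.04. Of 8 tested subunits 2 rose and 4 fell. DEPTOR, an mTOR inhibitor, rose 1.77-fold and RICTOR, which defines mTORC2, 1.36-fold (edgeR adjusted p = 0.00394 and 7.90e-05). MLST8, shared by both complexes, fell 1.58-fold and AKT1S1, an mTORC1 inhibitor also called PRAS40, 1.23-fold (edgeR adjusted p = 3.38e-05 and 0.000700). Of 10 AMPK and LKB1 genes 1 rose and 3 fell, led by PRKAB2 upward (1.23-fold) and by PRKAA2 (1.47-fold) and STRADA (1.19-fold) downward (edgeR adjusted p between 0.000343 and 0.0147). The STRADA call was lost with total counts alone (adjusted p = 0.0552) and without MLL4KO replicate 1 or 2 (0.0570 and 0.0805).

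Upstream of mTORC1, 4 of 13 insulin and AKT genes rose and 3 fell. PHLPP1, an AKT phosphatase, rose 1.48-fold and PIK3CA 1.33-fold, while AKT2 fell by 0.32 and PDPK1 by 0.27 on the log2 scale (edgeR adjusted p between 0.000434 and 0.00278). Downstream, 5 of 16 effector genes rose and 3 fell. PDCD4, an inhibitor of translation, rose by 0.58 and ULK1, the autophagy kinase, by 0.42 on the log2 scale (edgeR adjusted p = 3.70e-05 and 0.000568). EIF4EBP1, the translation repressor that mTORC1 phosphorylates, fell by 0.68 on the log2 scale (edgeR adjusted p = 2.71e-05). MITF, a lysosomal gene regulator, fell from a mean of 1.25 to 0.181 CPM (edgeR adjusted p = 0.00117). These means rest on 45 and 9 counts over the group, not scaled for depth. The MITF log2 fold change of -2.70 was -3.35 without MLL4KO replicate 3.

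Genes of the factors known to act on the members also went both ways, with 5 of 15 that rose and 4 that fell. FOXO4 rose 1.42-fold and FOXO6 1.54-fold (edgeR adjusted p = 0.00440 and 0.00624). FOXO3 rose 1.13-fold (edgeR adjusted p = 0.0446) but did not pass in 7 of 16 alternatives (adjusted p between 0.0570 and 0.187). FOXO1 was at a log2 fold change of 0.12 ± 0.09, and passed without MLL4WT replicate 1 (adjusted p = 0.0491). NFE2L2, which encodes NRF2, fell 1.27-fold and ATF4, at 278 ± 10.4 CPM in MLL4WT and 235 ± 6.49 in MLL4KO (SD), fell 1.18-fold (edgeR adjusted p = 0.000285 and 0.00114). The ATF4 call was lost with GC and length trends removed (adjusted p = 0.0628). HIF1A was at a log2 fold change of 0.02 ± 0.04. Of 7 kinases and partners upstream of ATF4, 3 fell and none rose by edgeR at an adjusted or unadjusted p, by DESeq2 or by limma-voom. Over all ways of processing, 0 to 1 of these 7 genes rose and 2 to 4 fell. PPP1R15A, a phosphatase subunit that ends the stress response, fell by 0.59 and EIF2AK1 by 0.32 on the log2 scale (edgeR adjusted p = 6.81e-05 and 0.000342).

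Other genes known as targets of the same factors were counted beside the members. Of 14 FOXO-regulated genes 7 rose and 2 fell, at a median log2 fold change of 0.33, where all tested genes had a median of 0.00. Of all tested genes 19.8% rose and 21.6% fell, and no test of the lists was run. CCNG2, an unconventional cyclin, rose 2.16-fold and CDKN1B, the cell cycle inhibitor p27, 1.53-fold, while KLF6 fell 1.74-fold and GADD45A 1.67-fold. The edgeR adjusted p of these 4 genes lay between 1.65e-07 and 1.24e-05. Of 16 ATF4-regulated genes 8 fell and 2 rose, at a median of -0.14. SLC7A11, the cystine transporter gene, fell 2.74-fold and its partner SLC3A2 1.35-fold, while PHGDH rose 1.29-fold and ATF5 1.17-fold (edgeR adjusted p between 4.86e-08 and 0.00305). Over all lists, each gene once, 32 of 144 tested genes rose and 42 fell, beside 19.8% and 21.6% of all tested genes. The median log2 fold change over these lists was -0.02.

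**Figure D4:**
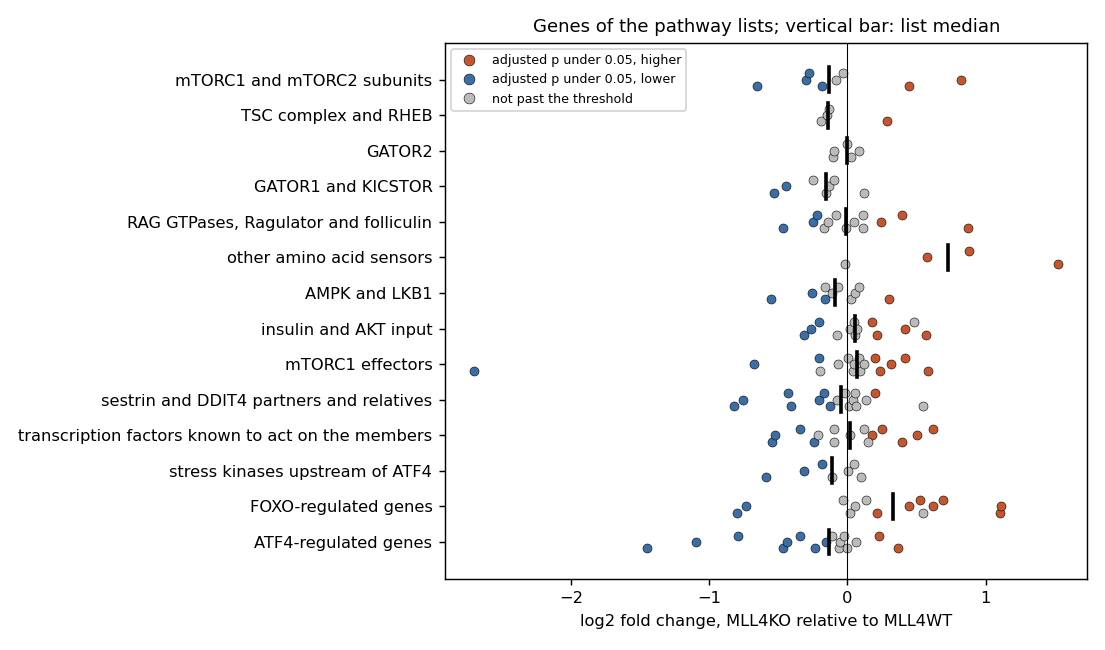
Log2 fold change (horizontal axis) of each tested gene in the 14 pathway lists, with orange for genes that passed the edgeR test upward, blue for those that passed downward, grey for the others and a vertical bar for the list median. The GATOR2 points are grey and centred near 0, 3 of the 4 other amino acid sensors are orange, and the FOXO-regulated list has the next highest median, at 0.33.

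Genes beside the members on the chromosome were counted to see how local the differences were. The counts stand beside 19.8% of all tested genes that rose and 21.6% that fell, and were not tested against those shares. Within 1 Mb of SESN3, 1 of 15 tested genes fell. None rose with edgeR, DESeq2 or limma-voom, and 1 had an unadjusted p under 0.05 upward. Over all ways of processing, 0 to 1 of these 15 genes rose and 1 to 4 fell. ENDOD1, 32.9 kb away, fell by 0.36 on the log2 scale (edgeR adjusted p = 0.000419), and FAM76B, the nearest on the other side, was at 0.09 ± 0.11. Near SESN1, 3 of 13 genes rose and 1 fell. CEP57L1, on the opposite strand 0.291 kb from SESN1, was at a log2 fold change of 0.01, and ARMC2 on the other side at 0.55 ± 0.24 (edgeR adjusted p = 0.0900). FIG4, a phosphoinositide phosphatase gene, rose by 0.53 and SMPD2, a sphingomyelinase gene, fell by 0.88 (edgeR adjusted p = 0.000395 and 4.84e-05).

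Around SESN2, 7 of 36 genes rose and 9 fell. ATP5IF1 and MED18, the nearest on either side, were at log2 fold changes of -0.05 ± 0.07 and 0.08 ± 0.09. MED18 passed upward without MLL4WT replicate 1 (adjusted p = 0.0401). THEMIS2, 373 kb away, rose by 1.13 and PTAFR, 65.6 kb away, fell by 1.05 on the log2 scale (edgeR adjusted p = 3.82e-06 and 0.000288). Around DDIT4, 8 of 19 genes fell and 2 rose, where 21.6% of all tested genes fell and 19.8% rose. Those counts around DDIT4 were 5 and 2 with DESeq2. The nearest on either side, ANAPC16 and DNAJB12, fell by 0.16 and 0.32 on the log2 scale (edgeR adjusted p = 0.0353 and 0.000886). The ANAPC16 call was lost in 8 of 16 alternatives, with adjusted p between 0.0709 and 0.182. ASCC1, 56.8 kb away, fell by 0.25 (edgeR adjusted p = 0.00701). These falls were smaller than the -0.67 of DDIT4 itself.

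**Figure D5:**
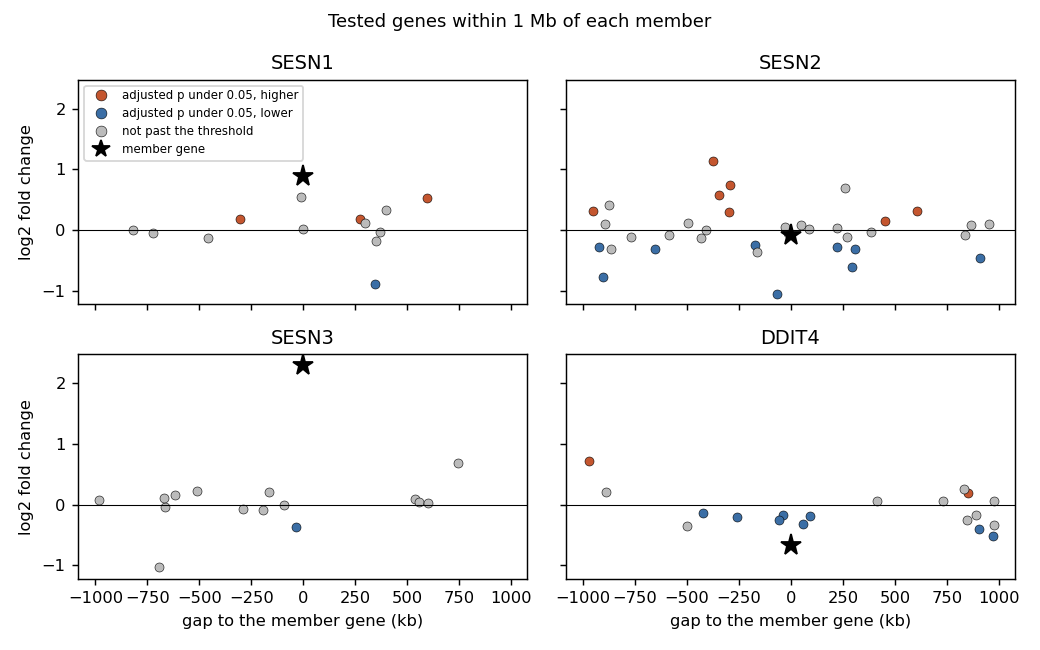
Log2 fold change (vertical axis) of tested genes within 1 Mb of each member against the gap in kb between the genes (horizontal axis, negative toward lower coordinates), with the member as a star and colours for the edgeR call. The SESN3 star, at 2.31, lies above all 15 of its neighbours, and the DDIT4 star, at -0.67, lies below all 19 of its own.

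The genes with the most similar profiles were found by the Euclidean distance between log2 CPM profiles over the 6 libraries, each centred on its MLL4WT mean, among 10875 protein-coding genes. Genes at a small distance have a like fold change by construction, so the fold changes below describe the selection only. For SESN3 the most similar genes were OTUD7A, HCN4 and FXYD6, at distances of 0.610, 0.613 and 0.663 and 4.66-fold, 5.06-fold and 4.24-fold higher in MLL4KO. Their MLL4WT means were 1.29, 2.44 and 2.81 CPM, so they reached the required 5 CPM only in MLL4KO. For SESN1 they were BAIAP3, GNAL and ONECUT3, at 0.190 to 0.197, with log2 fold changes of 0.83, 0.96 and 0.93. For DDIT4 they were SH3RF2, COCH and LONRF2, at 0.150 to 0.181, with log2 fold changes of -0.69, -0.63 and -0.70. For SESN2 they were CEP43, DLG4 and CILK1, at 0.0975 to 0.123, with log2 fold changes between -0.12 and -0.09. SESN3 had the largest distance to its nearest profile of the 4 genes. It also had the lowest counts and the largest replicate spread of the 4, a pooled SD of 0.416 on the log2 scale against 0.109 to 0.177. The part of that spread in the distance was not tested.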

How the data were processed

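mRNA was enriched on poly(A) beads and sequenced in 6 libraries, with genotype and replicate number taken from the sample titles. The deposited values are expected counts per Ensembl gene ID, whole and not normalised, per the file headers. The submitters' processing notes name Salmon 1.8.0, DESeq2 1.44.0 and hg38 without a role, and no annotation release. Symbols came from a gene name table (55764 of 59715 IDs). Coordinates, types and exon lengths came from GENCODE release 29 on GRCh38 (56227 IDs).

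Genes kept by filterByExpr (14543, with 99.9% of counts) were scaled by TMM and tested over all 6 libraries with the robust quasi-likelihood test of edgeR 4.0.16 in R 4.3.3, without covariates. "Rose" and "fell" mean a Benjamini-Hochberg adjusted p below 0.05. The script was tested on simulated counts. Alternatives were other scalings and filters, DESeq2 1.42.0, limma-voom (limma 3.58.1), a replicate block, the column name code as a term, leaving out each library and, added after seeing the data, removal of GC and length trends by lowess (span 0.3). The replicate spread in the closing section is the pooled SD of log2(CPM + 0.1).

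The members, gene lists and tests were chosen with earlier results of these data known. Genes named are the members, KMT2D and KMT2B, per list the called genes of smallest adjusted p (up to 2 each way), any gene of the lists closest to the members, nearest and called neighbours within 1 Mb, and per member the 3 most similar profiles, where the higher group mean reached 5 CPM. COL1A1, COL3A1 and the named genes of the colorectal epithelium list were named as markers after their values were seen. SOD2 was not analysed here, and some list genes and a motif are not reported here.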

Additional observations from a re-analysis of the deposited data

How the results depend on the processing

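Every one of the 16 alternatives kept the direction of SESN1, SESN3 and DDIT4, and SESN2 stayed within its replicate spread of the reported value. DDIT4 moved by more than its replicate spread in 1 setting, the removal of GC and length trends, to -0.52 on the log2 scale (the cause was not tested). Leaving out 1 library gave 2.06 to 2.54 for SESN3, 0.81 to 1.01 for SESN1, -0.16 to -0.02 for SESN2 and -0.75 to -0.59 for DDIT4. It gave 2163 to 3521 genes that rose and 2316 to 3822 that fell over the whole table, 25 to 37 and 33 to 48 in the lists, and 9 to 15 and 13 to 22 among the neighbours. The highest of each of these counts came without MLL4WT replicate 1, the shallowest library. Deviations from the group means correlated at 0.0217, 0.0278 and 0.00951 for equal replicate numbers 1 to 3. The libraries numbered 2 also share a column name code. Values this small do not settle whether equal numbers pair the libraries. Pairs that shared a column name code correlated at 0.0285, 0.0278 and 0.0296, small values but the highest of all pairs. With the code as a term 3469 genes rose and 3986 fell. MLL4WT replicate 1 alone carried its code, so that term also takes it out of the comparison. With the replicate block 2689 genes rose and 3024 fell, and the log2 fold changes were 2.26 for SESN3, 0.89 for SESN1, -0.10 for SESN2 and -0.67 for DDIT4. Of 88 genes examined beside the members, none of those that rose or fell in the reported fit changed direction. With the stricter filter only 85 of the 88 were compared. Genes that did not pass were not scored for this, and some changed sign. SAR1B, for example, went from -0.017 to 0.046 on the log2 scale with total counts alone. Calls near the threshold, such as those of FOXO3, CASTOR2 and RPTOR, were lost in several settings. Depth limits low genes most, since 3 counts in MLL4WT replicate 1 correspond to 0.446 CPM.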
